A study of Rattus norvegicus with 16 samples.

Results

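The 5 genes described here are the dopamine receptors Drd1 (ENSRNOG00000023688) and Drd2 (ENSRNOG00000008428) and the neuropeptide precursors Penk (ENSRNOG00000008943), Pdyn (ENSRNOG00000026036) and a row listed as Tac1 (ENSRNOG00000005853). They were chosen by gene ID from a count table of 32754 rat genes. All 5 were in the table, and 5 of 5 passed the filter on low counts that left 15035 genes for testing. Gene counts were measured by poly(A) RNA sequencing of hippocampus from wild-type male Fischer-344 rats, an inbred strain often used in work on aging. There were 4 groups of 4 rats: young sedentary and young exercise-trained rats, labelled as 6 months of age, and old sedentary and old exercise-trained rats, labelled as 20 months. Exercise training or sedentary housing lasted 10 weeks, behavioral tests came next in every group, and the hippocampus was dissected 2 days later. The labels number the libraries as biological replicates. They give 4 rats per group but 5 libraries per condition, and 10 libraries in a sequencing lane, while the table analysed has 4 libraries in each group. No source used here gives the lanes, so an effect of lane cannot be told apart from one of group.

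Dopamine acts through receptors that either raise or lower cyclic AMP in the cell: the receptor made from Drd1 raises it, and the receptor made from Drd2 lowers it. Penk encodes the precursor of the enkephalins and Pdyn that of the dynorphins, both of them opioid peptides, and Tac1 encodes the precursor of substance P. In the striatum, a forebrain region outside the hippocampus, projection neurons of the direct pathway make Drd1, Tac1 and Pdyn, and those of the indirect pathway make Drd2 and Penk. In the hippocampus Pdyn is known as a gene of dentate granule cells, and Penk is made by some interneurons and granule cells.

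The symbols of the 5 rows come from the list that defines the set, since no table used here pairs the Ensembl IDs of the files with symbols. For the same reason the labelled tissue was not checked against marker genes, and the 15 lists of related genes (other striatal genes, receptors, peptide-processing enzymes and markers of other cell types) were not tested. The row listed as Tac1 held 7 to 33 counts in every library. It stayed that low even where Drd1 was high, so its label as a striatal-type peptide gene is treated with caution here. A low level does not decide which gene a row is. By rank it followed Drd1 among the sedentary libraries, as given below. Whether this ID is Tac1 was not tested, so the row is named by its ID below and nothing is drawn from it about Tac1.

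Promoters are shown for Drd1 and Drd2, which moved together among the libraries, and for Pdyn, which was called in no comparison. They are RefSeq sequences of build GRCr8, from 250 bases before to 50 bases after the annotated start, while the counts were made on Rnor_6.0. The promoter table matched 4 of the 5 symbols, Penk being the other. Capitals mark the motifs found on either strand: a TATA box (TATAAA), a GC box (GGGCGG), an AP-1 site (TGANTCA), a cyclic AMP response element (CRE, TGACGTCA) or its first 5 bases (TGACG), which overlap the full element.
Drd1, chr17:10546354-10546653, plus strand: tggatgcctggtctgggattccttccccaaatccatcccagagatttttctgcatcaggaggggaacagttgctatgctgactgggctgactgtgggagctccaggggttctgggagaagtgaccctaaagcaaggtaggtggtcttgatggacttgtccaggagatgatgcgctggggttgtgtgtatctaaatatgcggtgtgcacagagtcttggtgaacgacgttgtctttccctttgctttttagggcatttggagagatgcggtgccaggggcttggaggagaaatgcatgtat
Drd2, chr8:58605153-58605452, plus strand: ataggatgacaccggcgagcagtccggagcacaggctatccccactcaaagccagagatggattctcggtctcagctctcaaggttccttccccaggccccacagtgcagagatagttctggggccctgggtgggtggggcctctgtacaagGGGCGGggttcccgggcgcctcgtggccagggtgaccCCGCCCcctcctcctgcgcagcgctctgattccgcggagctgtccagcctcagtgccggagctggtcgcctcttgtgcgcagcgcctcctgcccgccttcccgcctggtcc
Pdyn, chr3:137366454-137366753, minus strand: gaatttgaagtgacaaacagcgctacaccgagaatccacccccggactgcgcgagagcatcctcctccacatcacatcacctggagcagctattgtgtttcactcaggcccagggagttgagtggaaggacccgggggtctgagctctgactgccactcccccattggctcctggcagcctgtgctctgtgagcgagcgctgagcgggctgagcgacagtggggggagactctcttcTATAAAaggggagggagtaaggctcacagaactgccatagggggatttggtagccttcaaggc
Drd2 held 2 GC boxes, which 33.1% of 33469 promoters of this length hold at least once. Pdyn held 1 TATA box, as do 14.2% of them. The Drd1 window held none of the 5 motifs. The full CRE is in 1.83% of all these promoters, TGACG in 21.2% and the AP-1 site in 7.33%. A match describes the letters only.

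Library totals ran from 8630396 to 14576687 counts. Levels are given as counts relative to the TMM-scaled size of the library (CPM), and they compare libraries, not genes, because they are not divided by gene length. The first principal component of log2 CPM held 46.9% of the variance and set all 8 trained libraries (-39.8 to -18.9) apart from all 8 sedentary ones (0.69 to 55.9).

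Drd1, Drd2 and Penk were low and even in all trained libraries, and higher and very uneven in sedentary libraries. In young sedentary rats Drd1 stood at 12.0, 50.1, 9.28 and 29.0 CPM in replicates 1 to 4, against 6.32, 7.81, 6.34 and 5.99 CPM in young trained rats. In old sedentary rats it stood at 73.0, 55.6, 16.2 and 20.8 CPM, and in old trained rats at 6.10, 5.50, 5.25 and 4.85 CPM. The lowest sedentary library thus lay above the highest trained library at both ages, and the sedentary rats differed among themselves by up to 7.87-fold, the trained rats by up to 1.61-fold.

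Drd2 showed the same order of groups with a wider gap. Its level was 18.7, 84.9, 12.3 and 43.1 CPM in young sedentary rats and 4.48, 5.90, 4.38 and 3.89 CPM in young trained rats. In old sedentary rats it was 95.6, 81.4, 18.6 and 30.6 CPM, and in old trained rats 3.23, 3.48, 3.45 and 3.54 CPM. No trained library passed 5.90 CPM and no sedentary library was under 12.3 CPM.

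Penk, the enkephalin precursor, had 107.9, 415.8, 80.5 and 237.7 CPM in young sedentary rats and 57.0, 69.4, 67.0 and 51.0 CPM in young trained rats. It had 736.3, 424.3, 109.3 and 171.2 CPM in old sedentary rats and 60.0, 68.2, 74.0 and 50.2 CPM in old trained rats. Here too the groups did not overlap, but the margin was small, with 74.0 CPM in the highest trained and 80.5 CPM in the lowest sedentary library. Over both ages, all 8 trained libraries lay below all 8 sedentary libraries for 3 of the 5 genes and for 2.66% of the 15035 genes tested. Within 1 age, 12.5% of all genes had every trained library below every sedentary one in the young and 11.3% in the old.

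**Figure D1:**
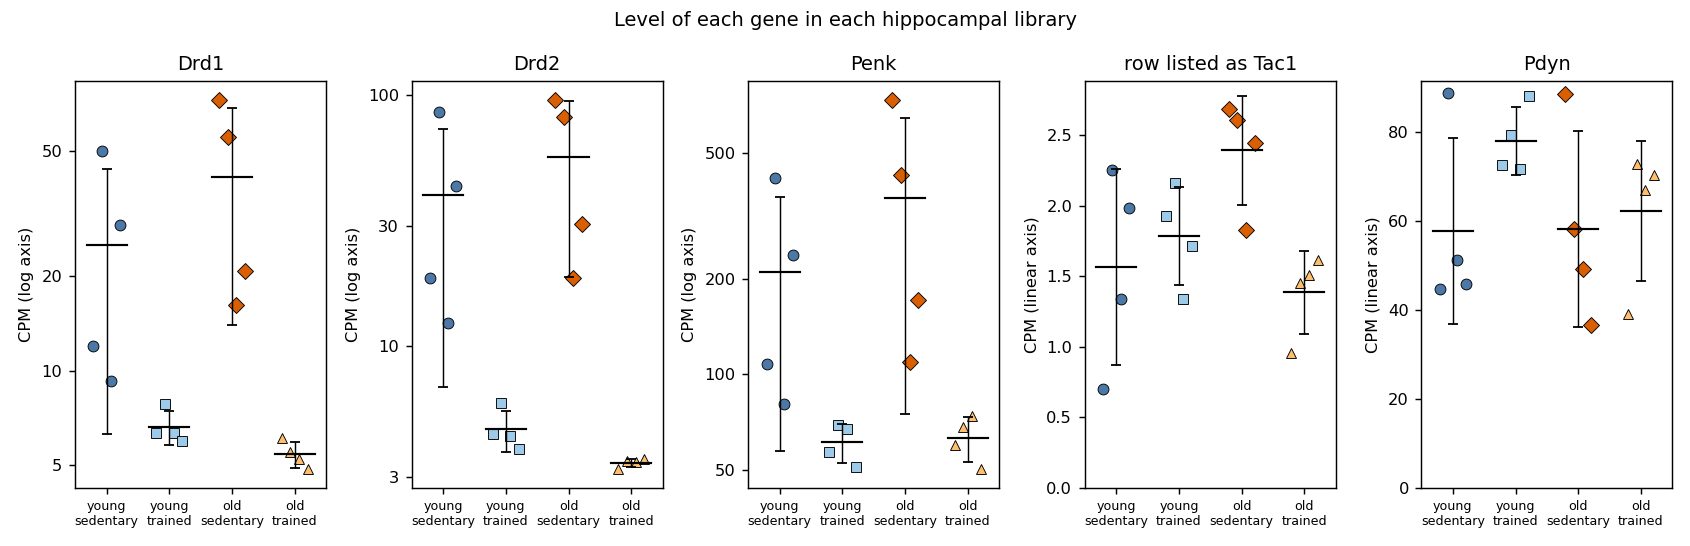
Level of each gene in CPM in each library (points), with the mean (line) and SD (bars, n = 4) of each group. The axes of Drd1, Drd2 and Penk are logarithmic and the others start at 0. Drd1, Drd2 and Penk lie lower in every trained library than in any sedentary one, and their sedentary libraries are spread over a 7.74-fold to 9.15-fold range.

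Pdyn, the dynorphin precursor, did not follow this pattern. It stood at 44.7, 88.7, 51.3 and 45.8 CPM in young sedentary rats and at 72.6, 79.3, 71.6 and 88.0 CPM in young trained rats. In old rats it stood at 88.4, 58.2, 49.1 and 36.6 CPM in the sedentary and at 39.0, 72.7, 67.0 and 70.3 CPM in the trained group. The groups overlapped at both ages. In the young, 1 sedentary library (replicate 2, 14576687 counts, the deepest of the 16) lay above every trained one, and in the old, 1 trained library (replicate 1, 8630396 counts, the shallowest) lay near the lowest sedentary ones.

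ENSRNOG00000005853 had few counts in all groups. Its mean was 1.57 ± 0.695 CPM (SD, n = 4) for the young sedentary and 1.79 ± 0.349 CPM (SD, n = 4) for the young trained group. For the old it was 2.39 ± 0.387 CPM (SD, n = 4) without and 1.38 ± 0.293 CPM (SD, n = 4) with training. In the library with the highest Drd1 level, old sedentary replicate 1, it had 30 counts and its own highest level, 2.69 CPM. Its groups overlapped in the young, while in the old every sedentary library (1.83 to 2.69 CPM) lay above every trained one (0.96 to 1.62 CPM).

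Whether training was associated with a different level was tested first in young rats, with edgeR's quasi-likelihood test and Benjamini-Hochberg adjustment over all 15035 genes. Of the 5 genes, 3 fell and 0 rose, against 10.3% of all genes called lower and 17.1% called in either direction. Mean Drd2 was 39.8 ± 32.9 CPM (SD, n = 4) without training and 4.66 ± 0.866 CPM (SD, n = 4) with it, or 8.61-fold lower (log2 fold change -3.11, SE 0.63, adjusted p = 0.00564). Of the 15035 genes, 26 had a lower fold change. Mean Drd1 was 25.1 ± 18.8 CPM (SD, n = 4) and 6.62 ± 0.815 CPM (SD, n = 4), or 3.84-fold lower with training (log2 fold change -1.94, SE 0.55, edgeR adjusted p = 0.0272). Mean Penk was 210.4 ± 153.1 CPM (SD, n = 4) and 61.1 ± 8.60 CPM (SD, n = 4), or 3.45-fold lower (log2 fold change -1.79, SE 0.56, edgeR adjusted p = 0.0409).

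In young rats the calls of Drd1 and Penk depended on single libraries, and that of Drd2 did not. Drd2 passed in 16 of 16 fits that each left out 1 library, with adjusted p from 0.0029 to 0.0292. Its log2 fold change was smallest, at -2.39 (SE 0.55), without young sedentary replicate 2. Drd1 passed in 10 of the 16 and Penk in 6 of the 16. Without young sedentary replicate 2, a library with high levels of both, the log2 fold change was -1.32 (SE 0.50, edgeR adjusted p = 0.101) for Drd1 and -1.20 (SE 0.52, edgeR adjusted p = 0.142) for Penk. Both also missed the threshold without young sedentary replicate 4 or any 1 of the 4 young trained libraries, where adjusted p in edgeR ran from 0.0539 to 0.0864 for Drd1 and from 0.0696 to 0.122 for Penk. Penk also missed it without any 1 of the 4 old trained libraries (edgeR adjusted p from 0.0524 to 0.0554).

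Mean Pdyn in the young was 57.6 ± 20.9 CPM (SD, n = 4) in the sedentary and 77.9 ± 7.60 CPM (SD, n = 4) in the trained group, a log2 fold change of 0.43 with a 95% interval of -0.16 to 1.02 (edgeR adjusted p = 0.28). ENSRNOG00000005853 had a log2 fold change of 0.15 with a 95% interval of -0.47 to 0.77 (edgeR adjusted p = 0.737). Neither difference was called. That of Pdyn was largest without young sedentary replicate 2, its highest library, and was still not called. The log2 fold change was then 0.74 (SE 0.26, edgeR adjusted p = 0.0729). The median log2 fold change was -1.79 over the 5 genes and -0.02 over all genes tested.

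In old rats the same 3 genes fell with training, and by larger fitted folds. Of the 5 genes, 3 were called lower and 0 higher, against 12.6% of all genes called lower and 24.1% called in either direction. Mean Drd2 was 56.5 ± 37.7 CPM (SD, n = 4) without training and 3.42 ± 0.137 CPM (SD, n = 4) with it, or 16.4-fold lower (log2 fold change -4.04, SE 0.66, edgeR adjusted p = 0.00128). Among the 15035 genes, 35 had a lower fold change there. Mean Drd1 was 41.4 ± 27.4 CPM (SD, n = 4) and 5.42 ± 0.521 CPM (SD, n = 4), 7.67-fold lower (log2 fold change -2.94, SE 0.56, edgeR adjusted p = 0.00272). Mean Penk was 360.3 ± 285.4 CPM (SD, n = 4) and 63.1 ± 10.4 CPM (SD, n = 4), 5.71-fold lower (log2 fold change -2.51, SE 0.57, edgeR adjusted p = 0.00626).

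All 3 calls in old rats were made in 16 of 16 fits that each left out 1 library. Penk fell least without old sedentary replicate 1 (log2 fold change -1.90, SE 0.51, edgeR adjusted p = 0.0227). They were lost when old sedentary replicates 1, 2 and 4, which lie apart on the first principal component, were left out together. The log2 fold change was then -2.43 (SE 0.80, edgeR adjusted p = 0.406) for Drd2, -1.58 (SE 0.69, edgeR adjusted p = 0.575) for Drd1 and -0.79 (SE 0.65, edgeR adjusted p = 0.845) for Penk, with 1 old sedentary library assumed to vary like the other groups. In that fit 0 genes of the whole table were called for training in old rats. With 1 surrogate variable, a term estimated from the counts to hold variation that the groups do not explain, the calls of these genes in old rats were also lost: the log2 fold change was -1.39 (SE 0.62) for Drd2, -0.65 (SE 0.60) for Drd1 and 0.09 (SE 0.59) for Penk, each with an edgeR adjusted p of 1.00. Over all genes, the fit with the surrogate variable called 3 lower and 0 higher for training in old rats, so the loss was not particular to these genes. Whether that term overlaps with the difference between trained and sedentary rats was not tested. In young rats that fit kept Drd2 (log2 fold change -1.99, SE 0.43, edgeR adjusted p = 0.0127) and lost Drd1 and Penk (edgeR adjusted p = 0.138 and 0.25).

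Pdyn in old rats was at 58.1 ± 22.1 CPM (SD, n = 4) in the sedentary and 62.2 ± 15.7 CPM (SD, n = 4) in the trained group (log2 fold change 0.10, 95% interval -0.49 to 0.69, edgeR adjusted p = 0.832). ENSRNOG00000005853 missed the threshold (log2 fold change -0.76, SE 0.28, edgeR adjusted p = 0.0598). The row passed without old sedentary replicate 3 (edgeR adjusted p = 0.0353), without young sedentary replicate 1 (edgeR adjusted p = 0.0266) and in a fit to the 8 old libraries alone (edgeR adjusted p = 0.0478). The median log2 fold change of the 5 genes was -2.51, against -0.01 over all genes tested.

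**Figure D2:**
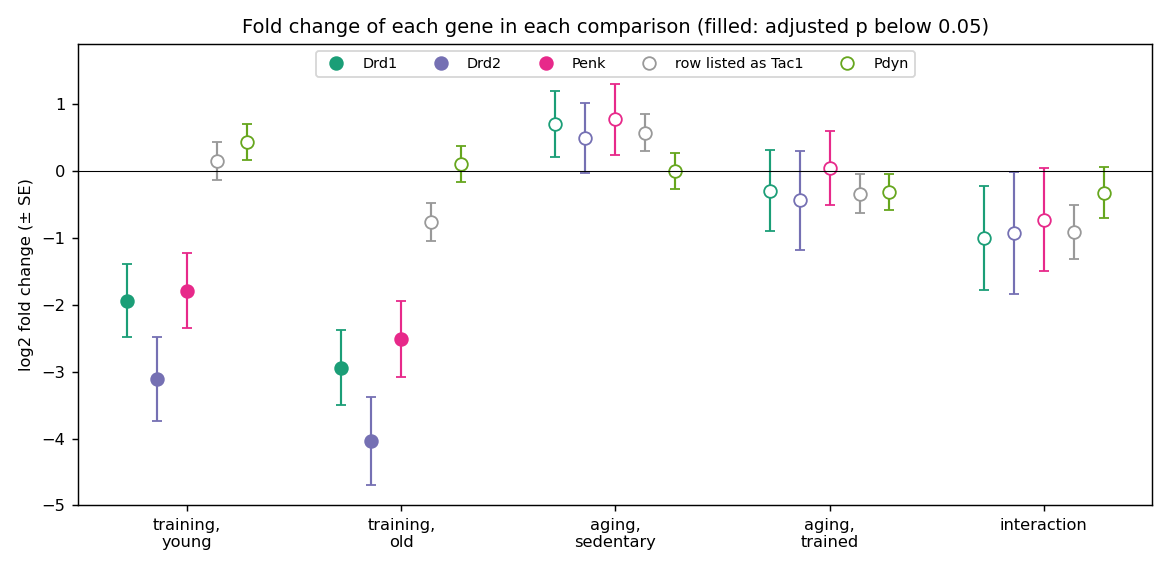
Log2 fold change of each gene (points) with its standard error (bars) in each of the 5 comparisons, filled where the edgeR adjusted p was below 0.05. Drd1, Drd2 and Penk are filled in both training comparisons, at log2 fold changes from -1.79 to -4.04, and no point is filled in the aging comparisons or the interaction.

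Age was not associated with a called change in any of the 5 genes. In sedentary rats edgeR called 0 of 5, against 1.51% of all genes in either direction and 0.459% lower. At an unadjusted p below 0.05 there were 0 of the 5 and 2998 of the 15035 genes. The DESeq2 Wald test and limma voom also called 0 of the 5. Over all genes they called 364 and 186 higher, and 545 and 271 lower. Drd1 had a log2 fold change of 0.70 with age (95% interval -0.36 to 1.77), Drd2 of 0.49 (95% interval -0.65 to 1.64) and Penk of 0.77 (95% interval -0.39 to 1.94). This direction turned in 2 alternatives. Without old sedentary replicates 1, 2 and 4 the log2 fold changes were -0.65, -1.11 and -0.95, and with 1 surrogate variable -0.56, -0.95 and -0.70, in the same order of genes. On leaving out 1 library, Drd1 ran from 0.28 to 1.30, Drd2 from 0.12 to 1.19 and Penk from 0.16 to 1.34, each lowest without old sedentary replicate 1 and highest without young sedentary replicate 2. In trained rats edgeR called 0 of 5, against 4.98% of all genes in either direction and 1.65% lower. Again 0 of the 5 had an unadjusted p below 0.05, against 3407 of the 15035 genes. The DESeq2 Wald test and limma voom called 0 of the 5 there. Over all genes they called 740 and 840 higher, and 504 and 508 lower. Among trained rats Drd1 averaged 6.62 CPM in the young and 5.42 CPM in the old, and Penk 61.1 and 63.1 CPM. Drd2 averaged 4.66 CPM in the young (3.89 to 5.90 CPM) and 3.42 CPM in the old (3.23 to 3.54 CPM). Its log2 fold change was -0.44 (SE 0.74). The spread was estimated over all groups, the uneven sedentary and the even trained ones together. The test in trained rats could therefore miss differences that exceed the spread among trained rats. For Drd1, Drd2 and Penk, the intervals given for sedentary rats may likewise be too narrow for the spread among sedentary rats. Each group enters both a training and an aging comparison, so these comparisons are not independent.

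Young and old rats were not shown to differ in their response to training. For the interaction of age and training edgeR called 0 of the 5 genes and 0 of the 15035 genes tested, or 0.0%, with a lowest adjusted p of 0.254. At an unadjusted p below 0.05 there was 1 of the 5, ENSRNOG00000005853, and 2033 of all genes. The DESeq2 Wald test and limma voom each called 0 of the 5, and over all genes they called 44 and 0. The difference in log2 fold change between old and young was -0.999 for Drd1 (95% interval -2.69 to 0.69), -0.93 for Drd2 (95% interval -2.91 to 1.05) and -0.73 for Penk (95% interval -2.39 to 0.94). This direction also turned, to 0.37, 0.69 and 1.01 without old sedentary replicates 1, 2 and 4, and to 0.33, 0.60 and 0.82 with 1 surrogate variable. Without old sedentary replicate 1 alone the differences were -0.58, -0.56 and -0.11, and without young sedentary replicate 2 they were -1.61, -1.64 and -1.31.

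The spread among sedentary rats was itself large for these genes. Over the 8 sedentary libraries the SD of log2 CPM was 1.08 for Drd1 and 1.14 for both Drd2 and Penk, against a median of 0.20 over all genes tested. Of the 15035 genes, 142, 114 and 115 had a larger SD than Drd1, Drd2 and Penk. Over the 8 trained libraries the SDs were 0.20, 0.27 and 0.21, against a median of 0.19. Pdyn had an SD of 0.46 in sedentary and 0.35 in trained libraries.

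Drd1, Drd2 and Penk varied together among the sedentary libraries. Since trained and sedentary libraries form separate clusters on these genes, correlations of log2 CPM were taken within each set of 8, with exact permutation p-values adjusted over the 20 pairs tested. In sedentary libraries Drd1 and Drd2 had Pearson r = 0.989 (exact permutation p = 9.92e-05, adjusted p = 0.000992) and Spearman rho = 0.952 (exact permutation p = 0.00114, adjusted p = 0.00761). Drd1 and Penk had Pearson r = 0.99 (exact permutation p = 2.48e-05, adjusted p = 0.000496, the smallest that 8 libraries can give) and put the 8 libraries in the identical order, with rho = 1.00 (exact permutation p = 4.96e-05, adjusted p = 0.000992). Drd2 and Penk had Pearson r = 0.984 (exact permutation p = 0.000248, adjusted p = 0.00165) and rho = 0.952 (exact permutation p = 0.00114, adjusted p = 0.00761). Without the 2 libraries farthest from the median of the first gene of each pair, r was 0.985, 0.987 and 0.999 (exact permutation, adjusted p = 0.037, 0.0278 and 0.037).

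Old sedentary replicates 1 and 2 and young sedentary replicate 2 were the highest libraries for all 3 genes, and young sedentary replicate 3 was the lowest. High and low libraries were found at both ages. Over deviations from group means in all 16 libraries, with values permuted within groups, r was 0.986 for Drd1 and Drd2, 0.976 for Drd1 and Penk, and 0.969 for Drd2 and Penk (permutation test, adjusted p = 0.00107, 0.001 and 0.001 over 10 pairs). The other 7 pairs had r from 0.558 to 0.656, with adjusted p of 0.0711 each in that permutation test. Deviations were not scaled by group, so the widely spread sedentary libraries weigh most in the r values of Drd1, Drd2 and Penk. These values are thus not separate from those of the sedentary libraries alone.

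ENSRNOG00000005853 and Pdyn had lower Pearson r with the 3 genes, and the differences between correlations were not tested. In sedentary libraries ENSRNOG00000005853 had r = 0.765 with Drd1 (exact permutation p = 0.0131, adjusted p = 0.0523) and rho = 0.905 (exact permutation p = 0.00456, adjusted p = 0.0183), so that it passed by rank and not by Pearson's r. With Penk it had r = 0.715 (exact permutation p = 0.0316, adjusted p = 0.0791) and likewise rho = 0.905 (exact permutation p = 0.00456, adjusted p = 0.0183). Without the 2 libraries farthest from the median of Drd1 its r was 0.734 (exact permutation, adjusted p = 0.208). Pdyn had r = 0.711 with Drd1 (exact permutation p = 0.0522, adjusted p = 0.0949) and rho = 0.571 (exact permutation p = 0.151, adjusted p = 0.233). In all, 3 of the 10 sedentary pairs passed on Pearson's r, 5 passed on Spearman's rho, and 7 had an unadjusted p below 0.05 for Pearson's r. The share of all gene pairs that would pass within the sedentary libraries was not computed. The joint variation is therefore not shown to be particular to these genes.

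In trained libraries 0 of the 10 pairs passed on Pearson's r or Spearman's rho, and 3 had an unadjusted p below 0.05 for Pearson's r. Drd1 and Drd2 had r = 0.838 there (exact permutation p = 0.012, adjusted p = 0.0523) and rho = 0.667 (exact permutation p = 0.0831, adjusted p = 0.185), and r was 0.652 without the 2 libraries farthest from the median of Drd1. Drd1 and Penk had r = 0.286 (exact permutation p = 0.502, adjusted p = 0.627) and rho = 0.238 (exact permutation p = 0.582, adjusted p = 0.728). Drd1 and Drd2 had 27 to 94 counts per trained library, and the part of counting error in their spread was not tested.

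**Figure D3:**
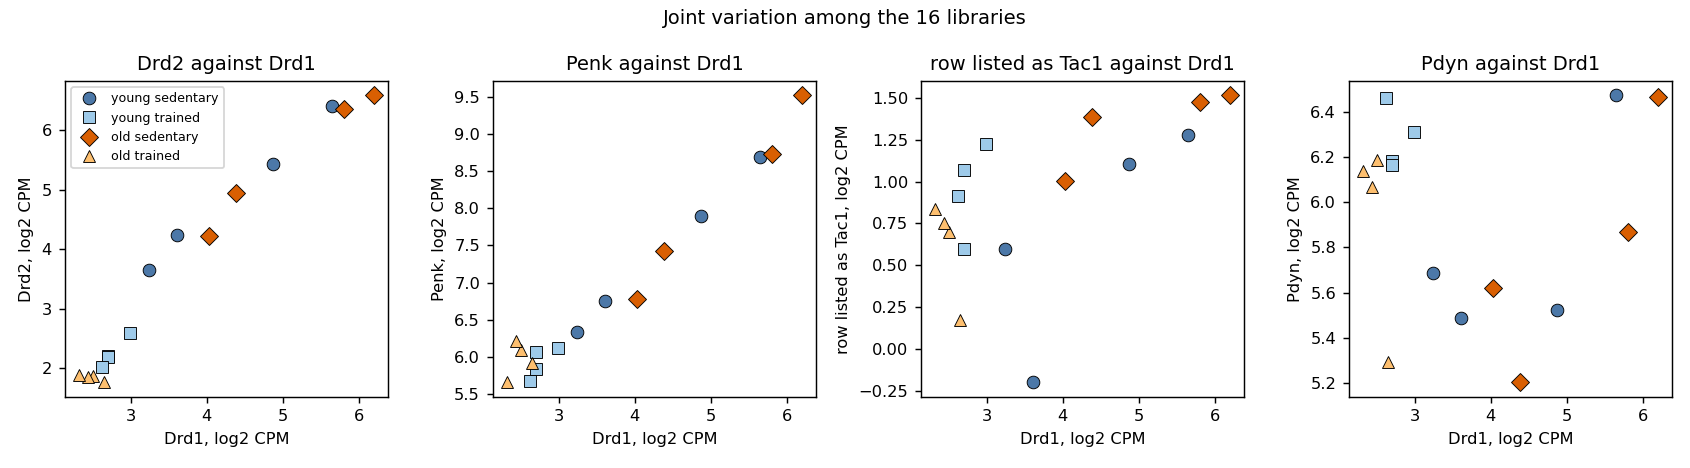
Log2 CPM of Drd2, Penk, the row listed as Tac1 and Pdyn (vertical axes) against Drd1 (horizontal axis) in each of the 16 libraries, with 1 marker shape per group. Drd2 and Penk rise with Drd1 along 1 line across the sedentary libraries of both ages (r = 0.989 and 0.99), while Pdyn is spread without such a line.

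The fitted falls of Drd1, Drd2 and Penk differed in size, and that of Drd2 was the largest at both ages. The ratio of Drd2 to Drd1 counts within a library is free of the scaling of libraries, although it is not a ratio of molecules because the genes differ in length. It ran from 1.33 to 1.70 in young sedentary and from 1.15 to 1.47 in old sedentary libraries, against 0.65 to 0.76 in young trained and 0.53 to 0.73 in old trained libraries. No trained library reached the lowest sedentary ratio. The mean log2 ratio was -0.59 over the 8 trained and 0.51 over the 8 sedentary libraries, a difference of -1.10 (8 against 8 libraries, exact permutation p = 0.000155, the lowest possible, adjusted p = 0.000932 over 6 tests). Within the young the difference was -1.11 and within the old -1.08 (4 against 4 libraries, each with an exact permutation p = 0.0286, the lowest possible, adjusted p = 0.0429). The ratios tested were chosen after the values were seen, and the adjustment over 6 tests does not cover that choice. Their p-values describe the gap and are not separate support for it.

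The ratio of Penk to Drd1 counts moved by less, and the other way. In the young it averaged 8.54 ± 0.366 (SD, n = 4) without and 9.25 ± 0.902 (SD, n = 4) with training. In the old it averaged 8.17 ± 1.41 (SD, n = 4) and 11.7 ± 1.96 (SD, n = 4). Trained minus sedentary was 0.31 on the log2 scale over both ages (exact permutation p = 0.00761, adjusted p = 0.0228). It was 0.11 within the young (exact permutation p = 0.171, adjusted p = 0.171) and 0.51 within the old (exact permutation p = 0.0571, adjusted p = 0.0686), so the pooled difference did not pass within either age.

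**Figure D4:**
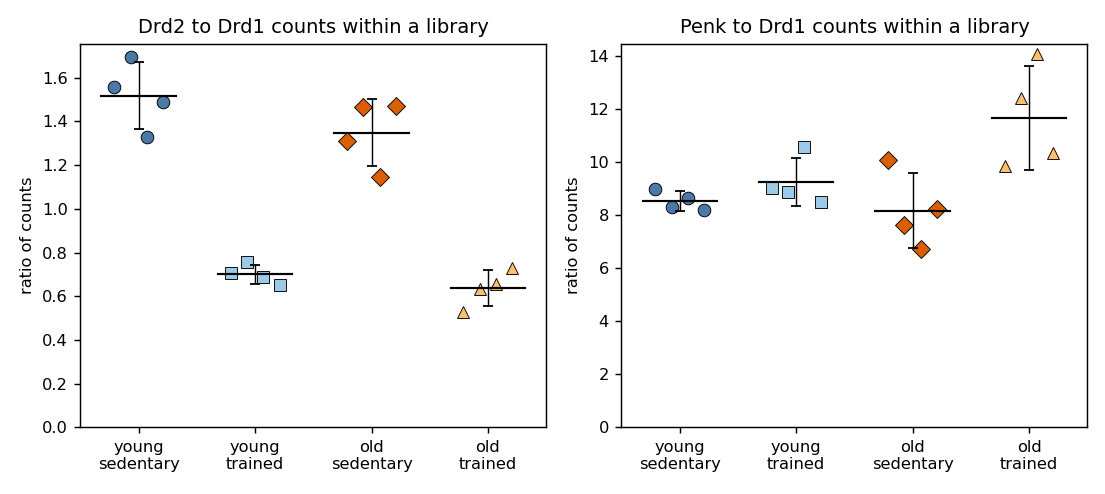
Ratio of Drd2 to Drd1 counts and of Penk to Drd1 counts in each library (points), with the mean (line) and SD (bars, n = 4) of each group and axes from 0. The Drd2 to Drd1 ratio is at least 1.15 in every sedentary and at most 0.76 in every trained library, while the Penk to Drd1 ratios of the groups overlap.

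Many other genes shared the pattern of Drd1, Drd2 and Penk. Of 13386 other tested genes whose mean log2 CPM reached 1, 84 had a Pearson r of at least 0.9 with Drd1 over the 16 libraries, 129 with Drd2, 62 with Penk and 1 with Pdyn. The counts for Drd1, Drd2 and Penk include each other. These r values include the difference between trained and sedentary libraries and are a description. Outside the set, ENSRNOG00000036828 was the most like Drd1 (r = 0.986) and the most like Penk (r = 0.987), with means of 192.3 ± 87.6 CPM (SD, n = 4) and 108.3 ± 3.35 CPM (SD, n = 4) in sedentary and trained young rats, and of 241.3 ± 102 CPM (SD, n = 4) and 100.6 ± 7.15 CPM (SD, n = 4) in sedentary and trained old rats. ENSRNOG00000001302 was the most like Drd2 (r = 0.994), with means of 61.8 ± 48.5 CPM (SD, n = 4), 7.34 ± 2.45 CPM (SD, n = 4), 86.4 ± 60.3 CPM (SD, n = 4) and 6.21 ± 0.816 CPM (SD, n = 4) in the same order of groups. The files do not pair these IDs with symbols.

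Other features of the sedentary libraries moved with these genes in part. A set of 11 genes was nearly without counts in trained rats, with no more than 3 counts for any of them in a trained library. These genes were picked for being nearly absent from trained libraries while present in sedentary ones. Their gap between trained and sedentary libraries thus follows from the choice and is not a result. Only the differences among sedentary libraries are described here. Their summed level was 8.99 to 116.4 CPM in sedentary libraries and at most 1.08 CPM in trained ones. In young sedentary replicates 1 to 4 it was 13.99, 43.1, 8.99 and 47.4 CPM, and in old sedentary replicates 1 to 4 it was 56.2, 73.0, 26.1 and 116.4 CPM. The 3 lowest libraries were young sedentary replicates 3 and 1 and old sedentary replicate 3, in the same order as for Drd1. The highest was old sedentary replicate 4, where Drd1 was at 20.8 CPM, while old sedentary replicate 1 had the highest Drd1 level, at 73.0 CPM. On the first principal component these last 2 libraries lay close together, at 52.9 and 49.7. The part of this variation in the lower levels of trained rats was not tested. In bulk tissue, fewer cells that make a gene and less RNA per cell cannot be told apart. The labelled tissue was not checked against marker genes, so a difference between libraries in the tissue dissected was not tested either.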

How the data were processed

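The deposited values are raw counts per Ensembl gene ID, with no normalization, for 16 libraries. Reads were handled with TopHat2 2.1.1 and HTSeq, beside Trimmomatic, FastQC, SAMtools and DESeq2, on build Rnor_6.0, per the submitters' processing notes, which give no order of use. No source used here says whether counting used strand, so overlapping and antisense genes are uncertain. Counts were filtered with filterByExpr, scaled by TMM and fitted with 1 mean per group over all 16 libraries in edgeR 4.0.16 (R 4.3.3, glmQLFit robust, 2-sided glmQLFTest, 12 residual degrees of freedom). Genes were called at Benjamini-Hochberg adjusted p below 0.05. The standard error is the fold change over the square root of F, and 95% intervals use 12 degrees of freedom. Log2 CPM had a prior count of 2. Pearson and Spearman correlations and ratios used 2-sided exact permutation, or 100000 permutations within groups (numpy 2.4.6). The fit was tested on simulated counts with the same spread in every group. That does not test it for genes as unevenly spread as Drd1, Drd2 and Penk. No pair of libraries of a group agreed within sampling noise. The RefSeq tables matched 0 of the Ensembl IDs. Members, lists and tests were chosen with earlier results of these data known. Beside the members, the text names the gene most like each of Drd1, Drd2 and Penk by Pearson r over 16 libraries. Alternatives were DESeq2 1.42.0 size factors and Wald test, limma 3.58.1 voom with quality weights, 1 surrogate variable (sva 3.50.0), a replicate block, no filter, a filter of 1 CPM in 8 libraries, a fit to the 8 libraries of a comparison alone, a prior count of 0.5 and the omission of each library. The ratios within libraries and the omission of 3 old sedentary libraries (1, 2 and 4) were added after the data were seen.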

Additional observations from a re-analysis of the deposited data

Results flagged for a closer look

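Of 20 sets of 4 libraries (5 genes in 4 groups), 2 had a library far from the rest, where chance marks about 5% of independent sets. Both were of Pdyn. In young sedentary rats replicate 2 stood at 88.74 CPM, against 44.67 to 51.27 CPM in the other libraries, a gap of 0.85 of the range. In old trained rats replicate 1 stood at 38.98 CPM, against 66.96 to 72.66 CPM in the others, a gap of 0.831 of the range. These were the deepest (14576687 counts) and the shallowest (8630396 counts) of the 16 libraries, and the part of depth was not tested.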

How the results depend on the processing

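The count of the 5 genes called for training in young rats was 3, and 1 (Drd2) without a filter on low counts, which tested 23249 genes, and with 1 surrogate variable. It ran from 1 to 3 on leaving out 1 library. For training in old rats it was 3, 0 with 1 surrogate variable, 0 without old sedentary libraries 1, 2 and 4, and 3 to 4 on leaving out 1 library. With 1 surrogate variable the log2 fold changes that turned were Penk (0.094) and ENSRNOG00000005853, listed as Tac1 (0.20), for training in old rats, Drd1 (-0.56), Drd2 (-0.95), Penk (-0.70) and Pdyn (-0.31) for aging in sedentary rats, and Drd1 (0.33), Drd2 (0.60), Penk (0.82) and Pdyn (0.0039) for the interaction. Without old sedentary libraries 1, 2 and 4 those that turned were Drd1 (-0.65), Drd2 (-1.11), Penk (-0.95) and Pdyn (-0.24) for aging in sedentary rats, and Drd1 (0.37), Drd2 (0.69) and Penk (1.01) for the interaction. Without a filter Pdyn was at -0.0082 for aging in sedentary rats. On leaving out 1 library, log2 fold changes that crossed 0 ran from -0.072 to 0.42 for ENSRNOG00000005853 with training in the young, from -0.062 to 0.38 for Pdyn with training in the old, from -0.27 to 0.29 for Pdyn with aging in sedentary rats and from -0.053 to 0.13 for Penk with aging in trained rats. Of all these values, Penk for training in old rats was the one called before it turned. The causes were not tested. In the other alternatives the counts of the 5 genes called were within 1.5 times, and 0 of the 5 were called for age or the interaction in any setting run. In trained libraries, r turned without the 2 libraries farthest from the median for Drd1 with Penk (-0.599), ENSRNOG00000005853 (-0.0185) and Pdyn (-0.0859), for Drd2 with Penk (-0.0301), and for Penk with ENSRNOG00000005853 (0.154) and Pdyn (0.407). On leaving out 1 trained library the r of these pairs ran, in the same order, from -0.0579 to 0.582, from -0.145 to 0.617, from -0.118 to 0.486, from -0.131 to 0.415, from -0.315 to 0.0276 and from -0.412 to 0.179. Pairs of genes that passed on Pearson's r ran from 3 to 6 in sedentary and from 0 to 1 in trained libraries on leaving out 1 library. The replicate block gave 3 genes called for training in young and 3 in old rats. It changed no call of the 5 genes, and it raised the calls over all genes for aging in sedentary rats by over 1.5 times. Same-numbered libraries had correlations of deviations from -0.245 to 0.477 over 24 pairs, of which 12 were above 0.1. A library correlated best with its own number in 23 of 48 comparisons, where numbers without meaning would give about 12, a hint of shared numbering from the data and not from the design. The numbers were not used as a pairing, because the labels do not tie them to a shared source and not every pair was above 0.1. Over all genes tested, calls for training in young rats ran from 1289 to 2992 on leaving out 1 library and from 1602 to 4393 in the other settings, against 2572. For training in old rats they ran from 2635 to 4510 and from 0 to 3818, against 3618. For aging in sedentary rats they ran from 38 to 2007 and from 3 to 909, against 227, and in trained rats from 237 to 1049 and from 585 to 1348, against 748. For the interaction they ran from 0 to 582 and from 0 to 44, against 0. Counts of 7 to 33 per library limit what can be said of ENSRNOG00000005853.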
